A study of Mus musculus with 30 samples.

Results

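The enzymes that break glucose down, store it as glycogen and make it anew were followed in muscle and kidney of mice with a tubule defect. A list of 34 genes was drawn up by the reaction each enzyme carries out. This list and those used beside it were chosen with earlier results of these data known. Of the 34 genes, 31 had a probe set annotated to that gene alone, out of 17782 genes measured in this way. These comprised 3 hexokinases, 6 enzymes of upper and 6 of lower glycolysis, 2 lactate dehydrogenases, 3 enzymes of fructose 2,6-bisphosphate, 7 of glycogen and 4 of gluconeogenesis. Gpi1, Eno1 and Pfkfb1 are not analysed here. The 31 genes had 57 probe sets, and 14 genes had several, in which case the one with the highest mean in the tissue stood for the gene.

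Muscle and kidney were taken at 6 weeks of age from 15 mice, which gave 30 arrays. The groups, in each tissue, were 4 Kif3aΔTub mutants given PBS, 3 wild-type animals given PBS, 4 Kif3aΔTub mutants given the trap and 4 wild-type animals given the trap. The labels also name the mutant Kif3aKSPCre. Cre driven by the KSP promoter, which is active in tubule epithelium, marks where Kif3a, a motor subunit needed to build primary cilia, is lost, and muscle is not a site of that promoter. The trap, sActRIIB-Fc, is the activin-binding part of receptor IIB joined to an antibody Fc, and it was injected into the peritoneum 2 times, a week apart, at 10 mg/kg. Strain, sex and littermate status are not stated in the labels, and the label text on injections is the same for all groups.

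Glycolysis turns glucose into pyruvate, and gluconeogenesis runs most of the same reactions backwards but bypasses the irreversible steps with enzymes of its own. In kidney the proximal tubule carries gluconeogenesis and releases glucose, while more distal segments use glucose by glycolysis. Muscle lacks glucose 6-phosphatase, keeps its glycogen for its own use, and runs glycolysis at a high rate in fast fibres. Several steps have isozymes encoded by different genes, with one form typical of muscle, another of liver and kidney, and others widely expressed.

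Levels are log2 intensities, with group means ± SD. Differences between groups are on the log2 scale, ± the standard error that limma gave. A gene passed the test, or was called, where its p was under 0.05 once adjusted by Benjamini and Hochberg's method for the 17782 genes of that tissue. Intensities of different probe sets are not compared with each other. The median of an array was 6.09 to 6.24 in kidney and 5.94 to 6.06 in muscle, and arrays of a group correlated at 0.977 or more. Kif3a itself was at 7.22 to 7.48 in untreated mutant kidneys and at 7.76 to 7.89 in untreated wild-type kidneys (-0.50 ± 0.15, adjusted p = 0.011), whereas under the trap the difference was -0.02 ± 0.14 (adjusted p = 0.905). Whether its probe set lies in the deleted part was not determined, so this level is a limited check. The tissue labels were checked on untreated wild-type arrays, where proximal tubule markers averaged 12.36 to 12.39 in kidney and 5.29 to 5.48 in muscle, and fast-fibre markers 4.67 to 4.77 in kidney and 13.96 to 14.07 in muscle.

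Kidney and muscle of untreated wild-type mice differed widely in these genes. All 31 genes differed between the tissues, 11 higher and 20 lower in kidney, where 64.6% of all genes differed. The actin 3' minus 5' signal, a measure of RNA quality, was 1.40 to 1.50 in these kidneys and 0.159 to 0.182 in these muscles. With it as a covariate 26 genes were called, without Gapdh, Gbe1, Hk3, Pygl and Pfkfb2. The signal did not overlap between the tissues, so RNA quality and tissue cannot be told apart in that fit. The gluconeogenic genes Fbp1 (8.83 ± 0.31), G6pc (7.67 ± 0.45) and Pck1 (5.97 ± 0.58) were higher in kidney. Genes of the muscle forms were lower there, among them the muscle glycogen phosphorylase Pygm (-8.29 ± 0.28) and the muscle enolase Eno3 (-7.72 ± 0.13). Fbp2, the fructose 1,6-bisphosphatase of muscle, was the gluconeogenic gene lower in kidney (-1.85 ± 0.19).

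At steps with several isozymes the tissues differed in opposite directions for different forms. Hk1, the widely expressed hexokinase, was higher in kidney (2.59 ± 0.14), and Hk2, the insulin-regulated hexokinase of muscle, was lower (-5.80 ± 0.23). Of the phosphofructokinases, which carry out the committed step of glycolysis, Pfkl (2.12 ± 0.23) and Pfkp (1.75 ± 0.17) were higher and the muscle form Pfkm was lower (-4.48 ± 0.14). Pgam1, the widely expressed phosphoglycerate mutase, was higher (3.49 ± 0.17) and Pgam2, its muscle form, lower (-4.31 ± 0.21). Ldhb, the heart-type lactate dehydrogenase, was higher (1.81 ± 0.12) and Ldha, the muscle type, lower (-1.39 ± 0.11). The liver glycogen phosphorylase Pygl was higher (2.51 ± 0.49), and so was Aldoc, the brain-type aldolase (2.51 ± 0.17). Pyruvate kinase Pkm (-3.09 ± 0.19), the aldolase Aldoa (-2.16 ± 0.10), the kinase and phosphatase genes Pfkfb3 (-2.84 ± 0.38) and Pfkfb4 (-2.95 ± 0.16), and glycogen synthase Gys1 (-2.81 ± 0.14) were lower. So were Phka1 (-5.39 ± 0.17) and Phkg1 (-7.80 ± 0.18), subunits of phosphorylase kinase. Ugp2 (-1.35 ± 0.17), which makes UDP-glucose, Tpi1 (-1.19 ± 0.12), Pgk1 (-0.77 ± 0.09), the branching enzyme Gbe1 (-0.64 ± 0.20) and Gapdh (-0.58 ± 0.09), the further enzymes shared by both tissues, were lower. The smallest differences were in Pfkfb2 (0.29 ± 0.13, adjusted p = 0.0411), which lost its call in 10 of 38 other settings, and Hk3 (-0.32 ± 0.11).

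Some of these levels lay near the floor of the array. Fbp1 and G6pc in muscle averaged no more than 4.91, the median level of the proximal tubule markers in muscle, and Phkg1 in kidney averaged less than 4.30, the median of fast-fibre markers in kidney. Differences against such dim signals, which include Pygm in kidney at 5.22 ± 0.44 and Hk2 in kidney at 5.30 ± 0.46, can be read only as lower bounds of size. Aldoa, Gapdh and Eno3 in muscle lay close to the highest value of a muscle array, 14.35 to 14.45, so their differences between the tissues could be compressed. Tpi1 and Phkg1 were represented by different probe sets in the tissues, and the comparison of tissues used 1 of them for both.

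**Figure D1:**
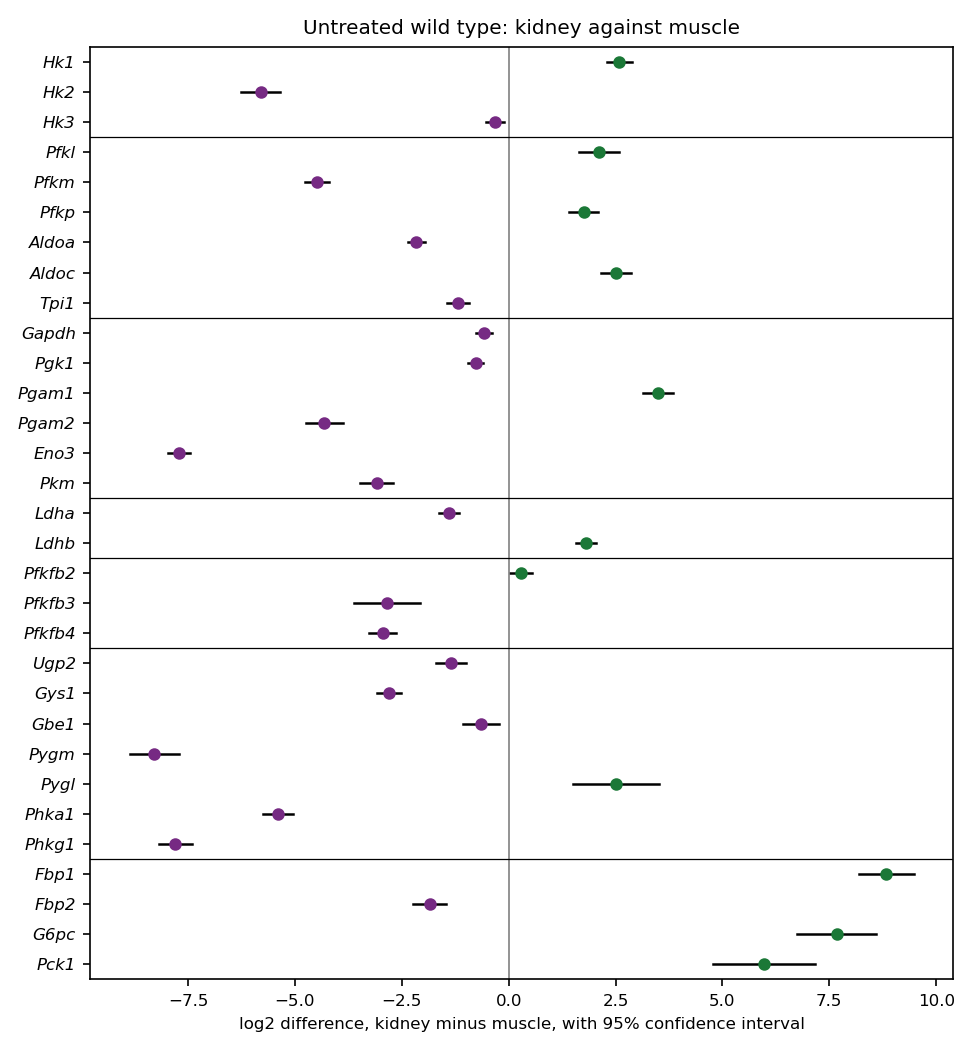
Difference between kidney and muscle in untreated wild-type mice for the 31 genes (log2, kidney minus muscle, n = 3 each), with 95% confidence intervals as lines. Genes run down the page in the order of their roles, divided by horizontal lines, with green points higher and purple points lower in kidney; the points of Fbp1 (8.83) and Pygm (-8.29) rest on a dim signal in 1 tissue and are at most lower bounds of size.

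In kidneys of untreated mutants 3 of 4 gluconeogenic genes were lower than in wild type, while 2 of 3 hexokinases and 2 of 3 enzymes of fructose 2,6-bisphosphate were higher. Of the 31 genes, 8 rose and 15 fell, where 51.6% of all genes were called. The median change over the 31 genes was -0.34, and over all genes -0.08. The falls were led by G6pc and Fbp1, 5.32-fold and 4.75-fold lower, and the rises by Hk2, 3.99-fold higher, Pfkfb3, 2.41-fold, and Pfkp, 2.33-fold. With each array centred on its median the counts were 8 higher and 16 lower.

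Markers of cell types differed in these kidneys as well. All 14 proximal tubule markers fell in untreated mutants, with array means of 8.49 to 10.27 in mutants and 12.36 to 12.39 in wild type, and all 16 macrophage and myeloid markers rose, at 9.39 to 10.08 in mutants and 6.26 to 6.66 in wild type. Collecting duct markers were at 10.21 to 10.52 in mutants and 8.37 to 8.57 in wild type (9 of 10 rose and 1 fell), and fibroblast markers at 10.07 to 10.46 in mutants and 8.11 to 8.51 in wild type (7 of 8 rose). Loop and distal tubule markers fell in 7 of 8. In whole tissue, fewer cells of a type and less RNA per cell cannot be told apart, and the part of these shifts in the changes below was not tested. The actin 3' minus 5' signal was 0.761 to 1.37 in untreated mutant kidneys and 1.40 to 1.50 in untreated wild-type kidneys. Since these ranges did not overlap, a fit with this covariate cannot tell RNA quality and genotype apart.

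Gluconeogenesis ends with G6pc, the catalytic subunit of glucose 6-phosphatase, which frees glucose. Its level was 8.04, 10.24, 9.43 and 9.89 in untreated mutant kidneys and 12.03, 11.94 and 11.46 in untreated wild-type kidneys (-2.41 ± 0.56, adjusted p = 0.00203). Every mutant array lay under every wild-type array, and mutant replicate 1 was the lowest. Fbp1, the fructose 1,6-bisphosphatase of liver and kidney, was at 10.25, 12.20, 11.58 and 11.68 in mutants and 13.62, 13.71 and 13.70 in wild type (-2.25 ± 0.34, adjusted p = 5.47e-05), again with no overlap. Mutant arrays were spread, with an SD of 0.83, against 0.05 in wild type. The highest value of a kidney array was 14.16 to 14.46. Wild-type Fbp1 lay near it, so its spread and the size of the fall could be compressed. Pck1, phosphoenolpyruvate carboxykinase, the entry step from oxaloacetate, was at 9.34, 12.60, 10.17 and 10.38 in mutants and 12.12, 12.74 and 12.34 in wild type (-1.78 ± 0.59, adjusted p = 0.0204). Mutant replicate 2 lay within the wild-type range and the other mutants lay under it. The call on Pck1 was lost without mutant replicate 1 or 3 or wild-type replicate 2, or with the actin signal as a covariate, and its other probe set gave -3.45 ± 0.92. Fbp2 did not pass the test (-0.17 ± 0.19). Replicate 1, with the lowest G6pc, Fbp1 and Pck1 of the untreated mutants, also had their lowest proximal tubule mean (8.49), and replicate 2, with the highest, had their highest (10.27).

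Promoter windows are shown for the 3 gluconeogenic genes that fell and, below, for Hk2 and Pfkp, which rose. A link between a motif and the direction of a change was not tested. They come from RefSeq on GRCm38.p6, run from 250 bases before to 50 bases after the annotated start on the gene's strand, and all 34 genes had such windows. G6pc lies at chr11:101367466-101367765 (plus strand), Pck1 at chr2:173152823-173153122 (plus strand) and Fbp1 at chr13:62888233-62888532 (minus strand). Capitals mark matches on either strand to any of 5 motifs. These are GTTAAT, which is a half-site of the tubule and liver factor HNF1, and TATAAA, which is the box that gives many promoters a fixed start. The others are TTACGTCA, a cyclic AMP response element, GGGCGG, which is the GC box, and ACGTG, which is 1 form of the core of a hypoxia response element. Other forms of that core were not searched for.
G6pc: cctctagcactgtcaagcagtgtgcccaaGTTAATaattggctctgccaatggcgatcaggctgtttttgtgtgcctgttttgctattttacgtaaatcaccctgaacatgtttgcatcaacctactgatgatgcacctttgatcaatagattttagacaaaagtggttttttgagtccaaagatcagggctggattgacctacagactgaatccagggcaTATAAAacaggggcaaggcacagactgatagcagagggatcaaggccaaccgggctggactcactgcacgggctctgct
Pck1: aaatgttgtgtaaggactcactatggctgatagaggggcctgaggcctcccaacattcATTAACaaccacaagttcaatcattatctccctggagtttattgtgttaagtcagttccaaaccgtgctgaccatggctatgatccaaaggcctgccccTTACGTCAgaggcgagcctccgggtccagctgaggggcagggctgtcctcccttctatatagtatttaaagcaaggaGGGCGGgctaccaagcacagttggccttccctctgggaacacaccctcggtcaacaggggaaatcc
Fbp1: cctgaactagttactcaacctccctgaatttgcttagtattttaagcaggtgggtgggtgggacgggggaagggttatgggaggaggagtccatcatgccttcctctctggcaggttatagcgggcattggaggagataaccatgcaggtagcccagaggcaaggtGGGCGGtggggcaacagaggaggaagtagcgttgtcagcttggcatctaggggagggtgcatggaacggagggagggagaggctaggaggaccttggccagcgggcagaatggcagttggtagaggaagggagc
GTTAAT stood in the windows of G6pc and Pck1 and in 7.1% of the 32851 windows of all genes. TATAAA stood in that of G6pc (13.6% of all windows), TTACGTCA in that of Pck1 (0.5%), and GGGCGG in those of Pck1 and Fbp1 (35.7%). The matches in the printed windows did not overlap each other, and they are descriptions of letters, not of binding.

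The hexokinases, which trap glucose in the cell by phosphorylation, moved the other way. Hk2 was at 7.46, 7.11, 7.45 and 7.17 in untreated mutant kidneys and 5.81, 4.93 and 5.17 in untreated wild-type kidneys (2.00 ± 0.26, adjusted p = 1.03e-05). The lowest mutant lay above the highest wild type, and none of 24 other settings lost the call. The wild-type mean of 5.30 ± 0.46 lay under the kidney array medians of 6.09 to 6.24, so the size of the rise rests on a dim baseline. Hk1 was at 10.68, 10.73, 10.57 and 10.50 in mutants and 9.65, 9.75 and 9.82 in wild type (0.88 ± 0.12, adjusted p = 1.92e-05), also without overlap. Its other probe set gave 0.53 ± 0.20. Hk3, the hexokinase of leukocytes, was at 6.17 ± 0.17 in mutants and 6.31 ± 0.03 in wild type (-0.14 ± 0.11, adjusted p = 0.307), beside macrophage markers that rose in 16 of 16. Both Hk3 means lay close to the kidney array medians of 6.09 to 6.24, so a rise could be missed at this signal.

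The phosphofructokinases changed in different directions. Pfkp, the platelet form, rose and was at 9.79, 9.41, 9.63 and 9.61 in mutants and 8.39, 8.31 and 8.46 in wild type (1.22 ± 0.12, adjusted p = 6.68e-07). Pfkm, the muscle form, fell and was at 7.72, 8.0, 7.94 and 7.86 in mutants and 8.77, 8.78 and 8.76 in wild type (-0.89 ± 0.13, adjusted p = 4.65e-05). Neither had overlapping groups. Pfkl, the liver form, was at 8.42, 8.55, 8.50 and 7.97 in mutants and 8.36, 8.40 and 8.30 in wild type (0.01 ± 0.19, 95% interval -0.39 to 0.41), and its dimmer probe sets gave -0.10 and 0.28. The dimmer probe sets of Pfkp gave 0.99 and -0.11, so its probe sets did not all show the rise.

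Hk2 lies at chr6:82774405-82774704 and Pfkp at chr13:6648722-6649021 (both minus strand), and their windows are given as those of the hexokinase and phosphofructokinase genes that rose, in the same notation.
Hk2: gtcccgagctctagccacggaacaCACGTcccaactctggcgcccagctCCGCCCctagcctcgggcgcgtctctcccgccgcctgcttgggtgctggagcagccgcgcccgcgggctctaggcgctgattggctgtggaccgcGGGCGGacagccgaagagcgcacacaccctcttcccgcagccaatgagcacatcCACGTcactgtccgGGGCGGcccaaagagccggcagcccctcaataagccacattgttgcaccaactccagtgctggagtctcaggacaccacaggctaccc
Pfkp: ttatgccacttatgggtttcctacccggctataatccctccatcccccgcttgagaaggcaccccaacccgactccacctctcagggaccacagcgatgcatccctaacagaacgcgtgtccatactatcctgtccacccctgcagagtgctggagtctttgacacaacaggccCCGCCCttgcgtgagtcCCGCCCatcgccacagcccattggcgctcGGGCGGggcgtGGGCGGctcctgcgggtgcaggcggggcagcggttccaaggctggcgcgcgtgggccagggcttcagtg
Both windows held GGGCGG more than once, and ACGTG stood in that of Hk2 and in 19.6% of all windows. Neither held the HNF1 half-site, the start box or the cyclic AMP response element. Among the windows of the 34 genes GGGCGG stood in 51.9% and ACGTG in 40.4%, counting every window of a gene with several. The 23 genes with GGGCGG and the 17 with ACGTG each included some that rose and some that fell in untreated mutant kidneys.

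The enzymes that make and remove fructose 2,6-bisphosphate, the main activator of phosphofructokinase, also rose in part. Pfkfb3, whose enzyme mostly makes it, was at 8.35, 7.89, 7.52 and 7.91 in mutants and 6.53, 6.72 and 6.69 in wild type (1.27 ± 0.19, adjusted p = 3.81e-05). The groups did not overlap, while its dim other probe set, at a mean level of 4.34, gave 0.00 ± 0.19. Pfkfb4 was at 6.99 ± 0.20 in mutants and 6.38 ± 0.13 in wild type (0.61 ± 0.16, adjusted p = 0.00441). Pfkfb2, the heart-type enzyme, was at 6.36, 6.21, 6.43 and 6.42 in mutants and 6.26, 6.35 and 6.38 in wild type (0.03 ± 0.09), and its 3 dimmer probe sets gave -0.43 to -0.56.

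**Figure D2:**
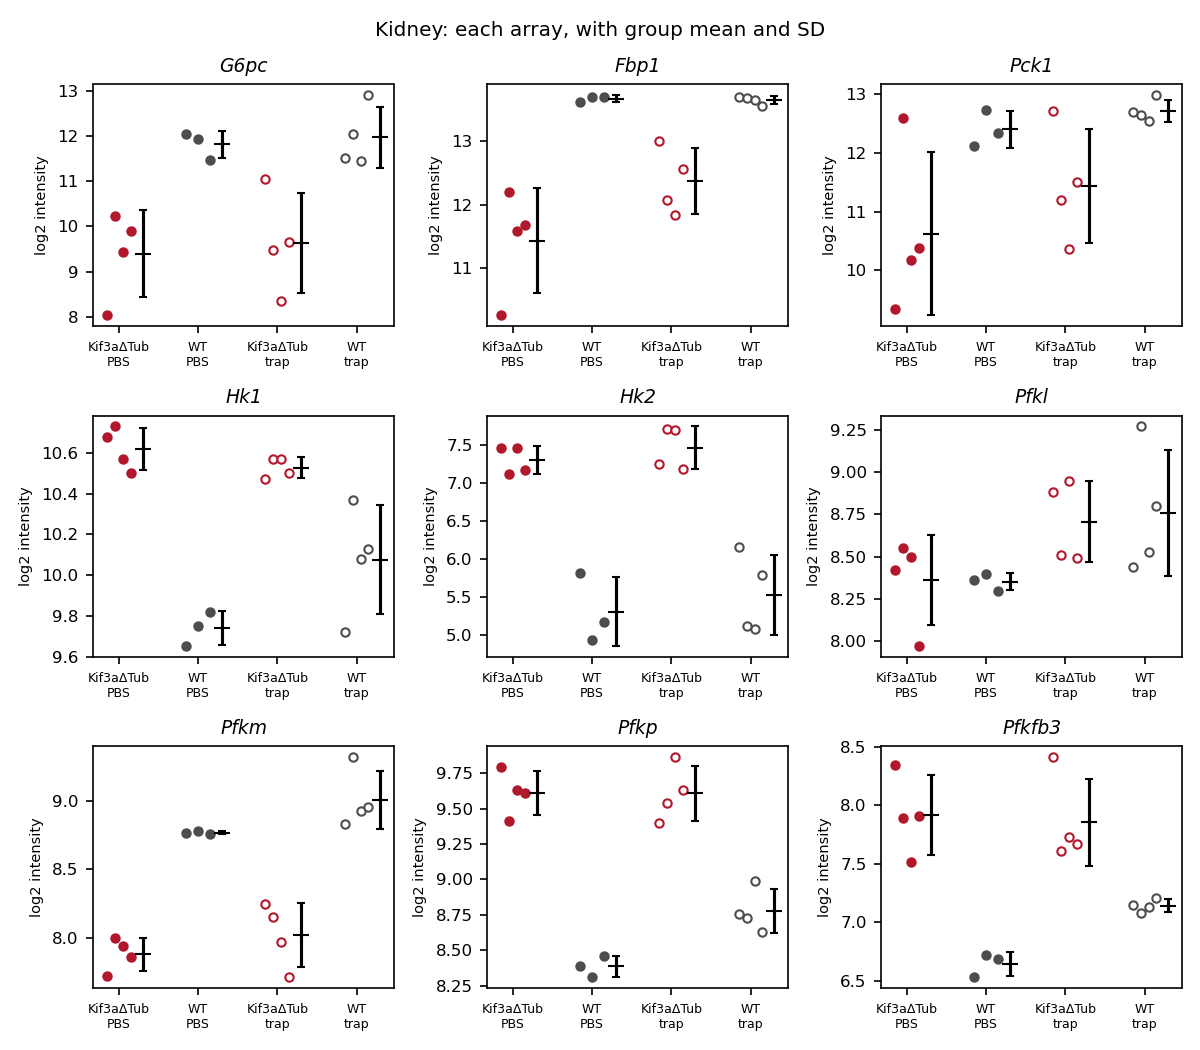
Log2 intensity of 9 genes in each kidney array (points, red for Kif3aΔTub and grey for wild type, filled under PBS and open under the trap), with the group mean and SD beside them (n = 4, wild type under PBS 3). The axes do not start at 0 and differ between genes; G6pc, Fbp1 and Pfkm lie lower, and Hk1, Hk2, Pfkp and Pfkfb3 higher, in mutants than in wild type under PBS without overlap.

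Below phosphofructokinase 5 genes of kidney glycolysis fell, 2 rose and 2 did not pass the test, where 51.6% of all genes were called. Aldoa, the muscle-type aldolase, rose (0.50 ± 0.12), and triose phosphate isomerase Tpi1 fell (-0.48 ± 0.10). Aldoc was at 7.70, 7.83, 7.90 and 7.64 in mutants and 8.23, 7.98 and 8.12 in wild type (-0.34 ± 0.17, adjusted p = 0.1), without overlap but short of the threshold, and its dim other probe set gave 0.12. Of the lower pathway, 4 of 6 genes fell and 1 rose. Pgam2 was at 8.20, 8.71, 7.97 and 8.24 in mutants and 9.55, 9.68 and 9.53 in wild type (-1.31 ± 0.20, adjusted p = 6.98e-05), while Pgam1 fell by 0.36 ± 0.09. Phosphoglycerate kinase Pgk1 fell by 0.62 ± 0.08 (adjusted p = 1.42e-05) and Gapdh, glyceraldehyde 3-phosphate dehydrogenase, by 0.46 ± 0.11. Gapdh was measured only by the 5' control probe set of the array, which also reads RNA quality. Pkm, the last step, rose and was at 11.20, 10.24, 10.52 and 10.30 in mutants and 9.77, 9.49 and 9.63 in wild type (0.94 ± 0.23, adjusted p = 0.00363). Mutant replicate 1 was highest, and the groups did not overlap. Eno3 was at 6.21 ± 0.27 in mutants and 6.33 ± 0.18 in wild type (-0.12 ± 0.15). Both lactate dehydrogenases fell, Ldha by 0.34 ± 0.11 with overlapping groups and Ldhb by 0.30 ± 0.09 without. Quantile normalization ended both calls, as did leaving out wild-type replicate 1.

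Of 7 glycogen genes 4 fell and 1 rose in untreated mutant kidneys, where 51.6% of all genes were called. Pygl was at 7.13, 8.08, 7.11 and 7.40 in mutants and 8.96, 8.52 and 8.68 in wild type (-1.29 ± 0.22, adjusted p = 0.000173). Gbe1, the branching enzyme, was at 7.52, 8.28, 7.44 and 7.50 in mutants and 8.72, 8.58 and 8.48 in wild type (-0.91 ± 0.19, adjusted p = 0.00103). For both genes replicate 2 was the mutant nearest to wild type, and the groups did not overlap. Ugp2, which makes the UDP-glucose that glycogen is built from, was at 10.58 ± 0.20 in mutants and 11.33 ± 0.03 in wild type (-0.75 ± 0.15, adjusted p = 0.000518), and its 5 probe sets gave -0.51 to -0.75. Phka1 was at 6.05, 6.51, 6.40 and 6.32 in mutants and 6.92, 6.72 and 6.79 in wild type (-0.49 ± 0.12, adjusted p = 0.00293). Its other probe sets gave -0.12 and 0.01, and the mean of all of them was not called. Phkg1 was at 3.56, 4.20, 3.77 and 3.83 in mutants and 3.21, 3.06 and 3.71 in wild type (0.51 ± 0.17, adjusted p = 0.0187), at the dim end where the groups overlapped. The call was lost without mutant replicate 2 or wild-type replicate 1 or 2. Gys1 (-0.14 ± 0.15) and Pygm (-0.38 ± 0.36) did not pass the test.

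Under the trap mutant and wild-type kidneys differed in 16 of the 31 genes, 4 higher and 12 lower in mutants, where 46.4% of all genes were called. Hk2 was at 7.25, 7.71, 7.69 and 7.18 in treated mutants and 6.15, 5.11, 5.07 and 5.78 in treated wild type (1.93 ± 0.24, adjusted p = 9.88e-06). G6pc was at 11.05, 9.49, 8.36 and 9.66 in treated mutants and 11.51, 12.04, 11.44 and 12.89 in treated wild type (-2.33 ± 0.52, adjusted p = 0.00174). Neither gene's groups overlapped. Fbp1 was at 13.00, 12.07, 11.83 and 12.57 in treated mutants and 13.70, 13.68, 13.66 and 13.56 in treated wild type (-1.28 ± 0.32, adjusted p = 0.00382). Pck1 was at 12.71, 11.19, 10.36 and 11.51 in treated mutants and 12.70, 12.65, 12.54 and 12.98 in treated wild type (-1.28 ± 0.55, adjusted p = 0.0681), with mutant replicate 1 within the wild-type range.

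Pfkp (0.83 ± 0.11), Pfkfb3 (0.71 ± 0.17) and Hk1 (0.45 ± 0.11) were the other genes higher in treated mutants. The mean of both Pfkfb3 probe sets did not pass the test. Among the genes lower were Pgam2 (-1.37 ± 0.19), Pygl (-1.19 ± 0.21), Pfkm (-0.99 ± 0.12) and Gbe1 (-0.67 ± 0.18). Aldoc was at 7.90, 7.65, 7.64 and 7.21 in treated mutants and 8.42, 9.17, 8.80 and 8.63 in treated wild type (-1.15 ± 0.15, adjusted p = 2.34e-05), without overlap. Pgk1 (-0.39 ± 0.08), Eno3 (-0.38 ± 0.14), Tpi1 (-0.34 ± 0.09), Gapdh (-0.30 ± 0.10) and Ldhb (-0.26 ± 0.09) were lower by smaller amounts, and the groups overlapped for Eno3 and Gapdh. Of 24 or 25 other settings, 6 ended the call on Eno3, 7 that on Gapdh and 8 that on Ldhb, among them leaving out mutant replicate 3 for each, and quantile normalization ended those on Tpi1, Gapdh and Ldhb. Pkm (0.47 ± 0.22, adjusted p = 0.0904), Aldoa (0.22 ± 0.11), Pfkfb4 (0.36 ± 0.14), Ugp2 (-0.31 ± 0.14), Phka1 (-0.27 ± 0.11), Ldha (-0.05 ± 0.10), Pgam1 (-0.14 ± 0.08) and Phkg1 (0.22 ± 0.15) did not pass the test under the trap, though they did under PBS; no interaction was called for them. With each array centred on its median, 4 genes were higher and 17 lower, while the median change of all genes was -0.18 in place of -0.06. In the treated kidneys 13 of 14 proximal tubule markers were lower in mutants, with array means of 10.18 to 10.69 in mutants and 12.27 to 12.31 in wild type. All 16 macrophage markers were higher, at 9.33 to 9.87 in mutants and 6.69 to 7.35 in wild type. The actin 3' minus 5' signal was 1.64, 0.958, 1.30 and 0.606 in treated mutant kidneys and 1.38 to 1.60 in treated wild-type kidneys. Mutant replicate 1, with the highest signal, also had the highest G6pc, Fbp1 and Pck1 of the treated mutants. With the signal as a covariate the call on Ldhb was lost.

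**Figure D3:**
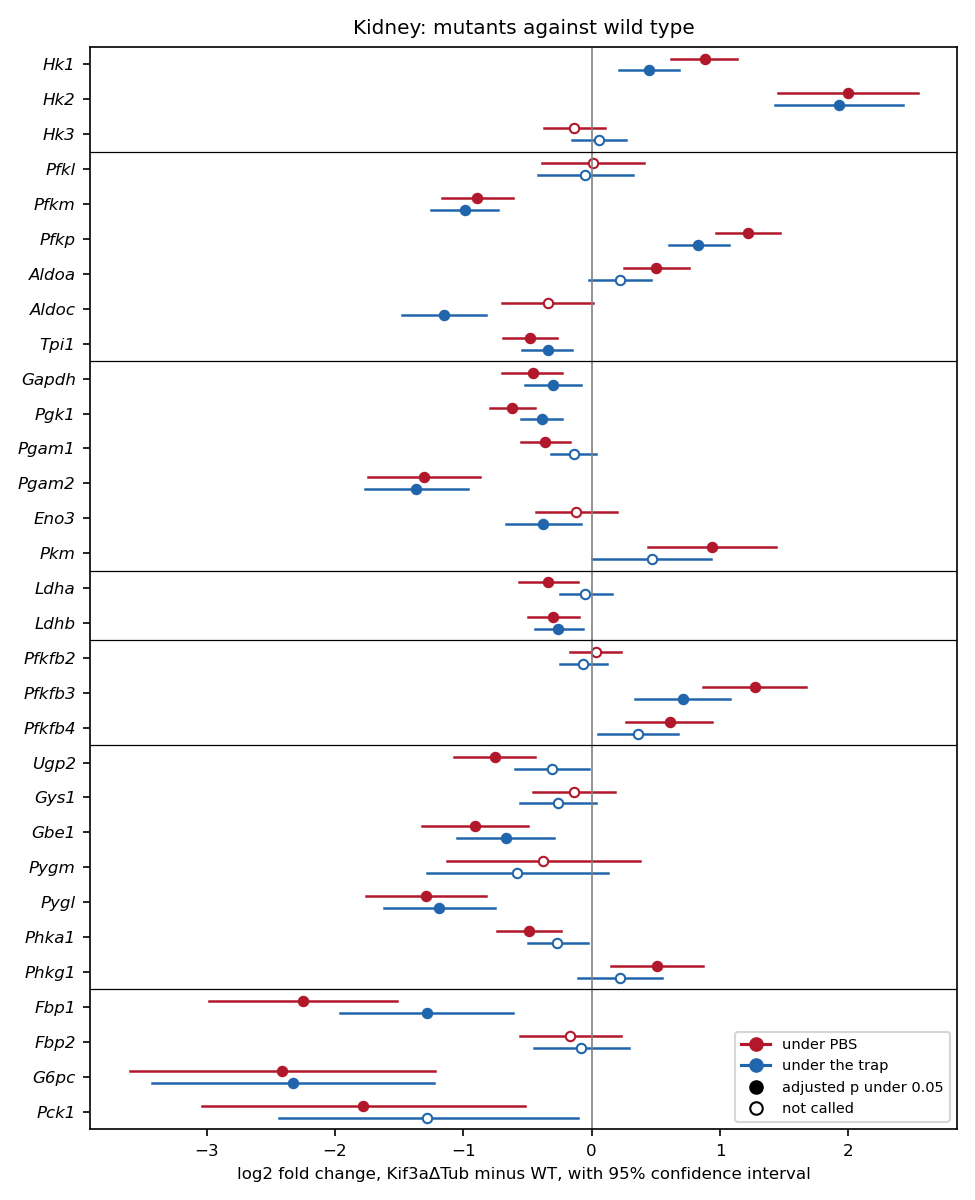
Log2 fold change of each gene between Kif3aΔTub and wild-type kidneys under PBS (red) and under the trap (blue), with 95% confidence intervals and filled points where adjusted p was under 0.05. Under PBS 23 genes were called and under the trap 16; Hk2 (2.00 and 1.93) and G6pc (-2.41 and -2.33) lie at the ends under both.

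For the trap against PBS no gene of the 31 passed the test in kidney. In mutants 0 were called by limma and 6 had an unadjusted p under 0.05. Over all 17782 genes 2.40% were called and 2659 had such a p. In wild type 0 were called and 9 had such a p, where 0.877% of all genes were called and 2349 had such a p. For the interaction of genotype and trap 0 were called and 5 had such a p. Over all genes 1.38% were called and 2409 had such a p. In treated mutants against untreated mutants Fbp1 differed by 0.94 ± 0.32 (adjusted p = 0.145) and Pygl by 0.55 ± 0.21 (adjusted p = 0.193), both with overlapping groups. In treated against untreated wild type Aldoc differed by 0.64 ± 0.17 (adjusted p = 0.0961), Pfkfb3 by 0.50 ± 0.19 and Pfkp by 0.39 ± 0.12, without overlap. Of these genes Aldoc had an interaction of -0.81 ± 0.23 (adjusted p = 0.1). Without untreated mutant replicate 2 the count in mutants was 2, and without treated wild-type replicate 1 the counts in wild type and for the interaction were 2 each. With the trap in mutants 2 of 14 proximal tubule markers rose. Loop and distal tubule markers were at 10.01 to 10.28 in treated and 9.20 to 9.85 in untreated mutants (2 of 8 rose), and collecting duct markers at 9.89 to 10.16 in treated and 10.21 to 10.52 in untreated mutants (3 of 10 fell). In wild type collecting duct markers were at 8.81 to 9.26 in treated and 8.37 to 8.57 in untreated kidneys (2 of 10 rose), and macrophage markers at 6.69 to 7.35 in treated and 6.26 to 6.66 in untreated kidneys (0 of 16 called by limma, 7 at an unadjusted p under 0.05). The part of these shifts in the values above was not tested. The actin signal was 0.606 to 1.64 in treated and 0.761 to 1.37 in untreated mutant kidneys. In wild-type kidneys it was 1.38 to 1.60 in treated and 1.40 to 1.50 in untreated animals.

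**Figure D4:**
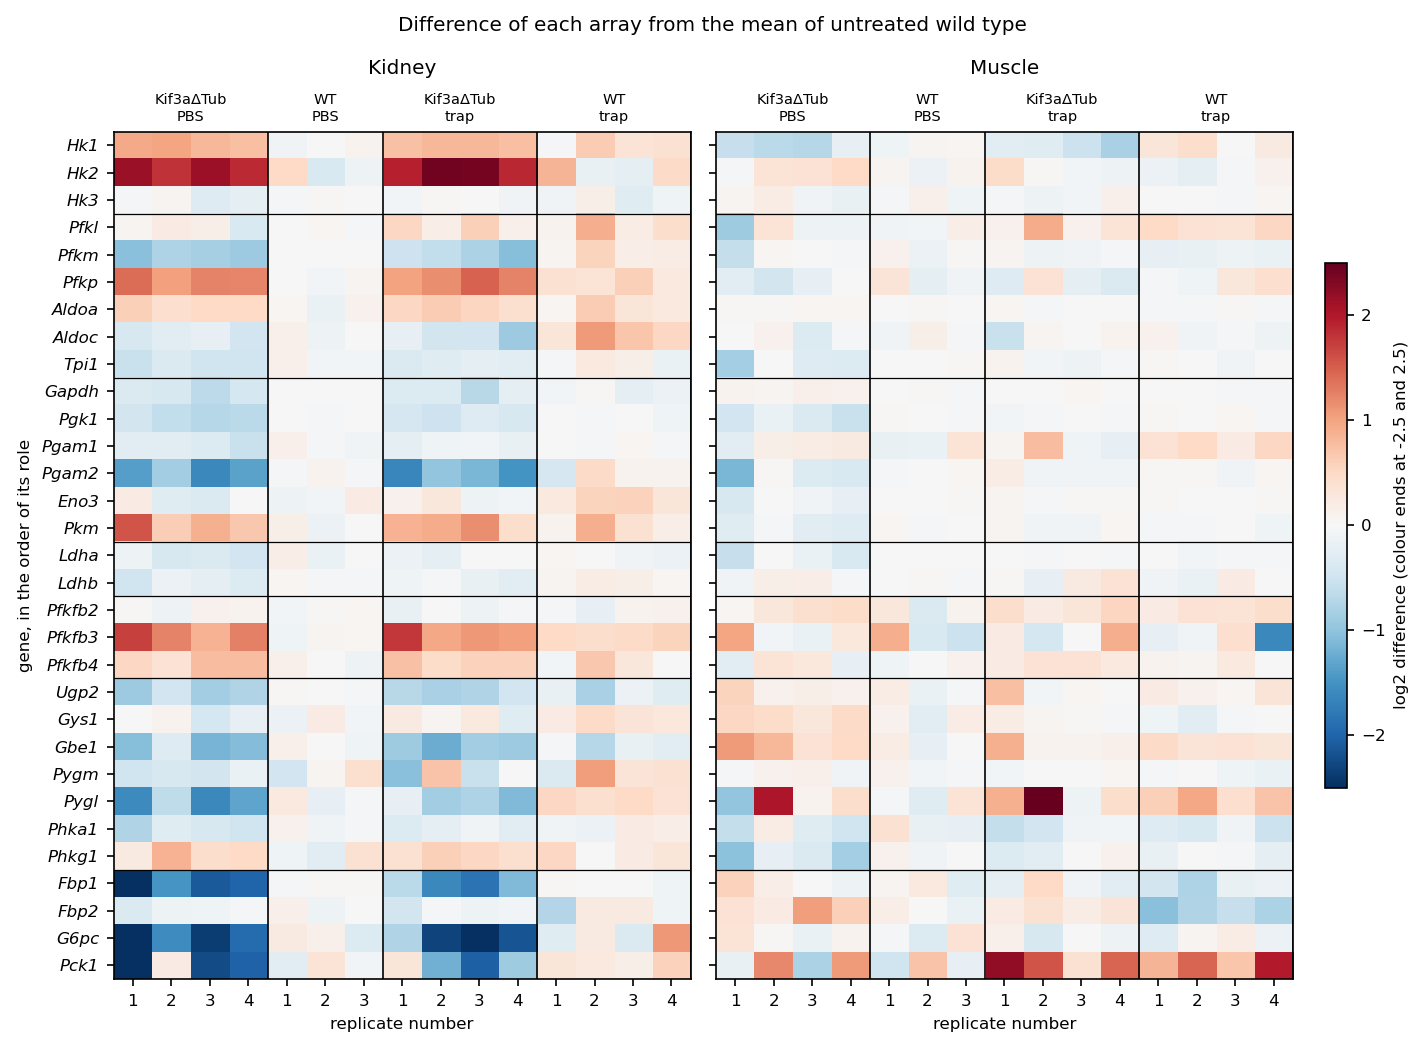
Each array's difference from the mean of untreated wild type of its tissue, for the 31 genes in the order of their roles (log2, red higher and blue lower, colours end at -2.5 and 2.5). Columns are single arrays by group and replicate number; in mutant kidneys Hk2 is red and Fbp1 and G6pc are blue in every array, and in muscle most cells are pale apart from dim or variable genes such as Pygl and Pck1.

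In muscle of untreated mutants few of these genes passed the test. Of the 31 genes 3 rose and 3 fell, where 16.0% of all genes were called. An unadjusted p under 0.05 was reached by 10 of the 31 and by 5198 of all 17782 genes. The glycogen genes Gbe1 and Gys1 and the muscle bisphosphatase Fbp2 rose, and Phkg1, Hk1 and Pgk1 fell, none by more than 1.61-fold. Leaving out any 1 array kept the call on Pgk1, while each of the other 5 was lost without at least 1 array: 2 calls remained without mutant replicate 1, 1 without wild-type replicate 2, 2 without wild-type replicate 3 and 10 stood without mutant replicate 2. With the actin signal as a covariate 1 remained, that on Gys1. That signal was -0.0611 to 0.141 in untreated mutant muscle and 0.159 to 0.182 in untreated wild-type muscle. These ranges did not overlap, so RNA quality and genotype cannot be told apart with this covariate.

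Fast fibres hold more glycolytic enzyme than slow ones, and markers of both were measured. Fast-fibre markers averaged 14.00 to 14.04 in untreated mutants and 13.96 to 14.07 in wild type, and 0 of 12 were called by limma, with 3 at an unadjusted p under 0.05. These lie close to the top of the scale, since the highest value of a muscle array was 14.35 to 14.45, so a change in them could be compressed. The same holds for Aldoa, Gapdh and Eno3 in muscle. Slow-fibre markers averaged 10.88 to 11.63 in mutants and 10.34 to 10.84 in wild type, and 4 of 9 rose. Fibroblast markers fell in 7 of 8, at 8.46 to 9.26 in mutants and 10.87 to 10.98 in wild type. The part of these shifts in the changes below was not tested.

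Gbe1 was at 10.29, 10.07, 9.59 and 9.74 in untreated mutant muscle and 9.42, 9.03 and 9.25 in untreated wild-type muscle (0.69 ± 0.19, adjusted p = 0.0232). Gys1, which extends the glycogen chain, was at 10.99, 10.92, 10.75 and 10.94 in mutants and 10.57, 10.19 and 10.65 in wild type (0.43 ± 0.12, adjusted p = 0.0213), and its other probe set gave 0.69 ± 0.14. Both genes were higher in every mutant array than in any wild-type array. Phkg1, the catalytic subunit of phosphorylase kinase, which turns on glycogen breakdown, was at 10.26, 11.08, 10.93 and 10.45 in mutants and 11.39, 11.20 and 11.28 in wild type (-0.61 ± 0.17, adjusted p = 0.0242). Its other probe set gave -0.64 ± 0.18. Pygm, the phosphorylase that the kinase acts on, was at 13.54 ± 0.11 in mutants and 13.51 ± 0.10 in wild type (0.03 ± 0.09, 95% interval -0.17 to 0.23). Phka1 (-0.31 ± 0.20), Ugp2 (0.23 ± 0.18) and Pygl (0.39 ± 0.59) did not pass the test, and Pygl ranged between 5.22 and 8.22 among the untreated mutants.

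Fbp2 was at 10.37, 10.21, 11.05 and 10.59 in untreated mutant muscle and 10.16, 10.01 and 9.84 in untreated wild-type muscle (0.55 ± 0.17, adjusted p = 0.0345). It was the gene with the clearest difference under the trap, at 10.20, 10.39, 10.19 and 10.32 in treated mutants and 8.95, 9.26, 9.42 and 9.22 in treated wild type (1.06 ± 0.15, adjusted p = 0.00461). All 25 other settings kept that call. Between treated and untreated wild type Fbp2 differed by -0.79 ± 0.17 without overlap, which did not pass the test (adjusted p = 0.13), and between treated and untreated mutants by -0.28 ± 0.15. The interaction was 0.51 ± 0.23 (adjusted p = 0.317). These comparisons share groups, so their values are not independent of each other.

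Hk1 was at 6.59, 6.49, 6.45 and 6.95 in untreated mutant muscle and 7.04, 7.23 and 7.20 in untreated wild-type muscle (-0.54 ± 0.15, adjusted p = 0.0261). In treated muscle it was at 6.89, 6.86, 6.62 and 6.34 in mutants and 7.46, 7.59, 7.14 and 7.39 in wild type (-0.72 ± 0.14, adjusted p = 0.0178). The groups did not overlap under either treatment, and the dim other probe set gave -0.02 ± 0.11 under PBS. Leaving out any of 5 treated arrays ended the call under the trap, as did the actin signal as a covariate, which was 0.0932 to 0.204 in treated mutants and 0.129 to 0.396 in treated wild type. Fbp2 and Hk1 were the 2 genes called between treated mutants and treated wild type, where 1.66% of all genes were called. Hk2, the main hexokinase of muscle, was at 11.40 ± 0.23 in untreated mutants and 11.10 ± 0.13 in untreated wild type (0.30 ± 0.15, adjusted p = 0.212).

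Pgk1 was at 13.10, 13.42, 13.21 and 13.02 in untreated mutant muscle and 13.61, 13.59 and 13.53 in untreated wild-type muscle (-0.39 ± 0.10, adjusted p = 0.0128). In treated mutants it was at 13.50, 13.52, 13.57 and 13.52, all above the untreated mutants (0.34 ± 0.09, adjusted p = 0.0362). It was the 1 gene of the 31 called for the trap in mutants, where 6.33% of all genes were called. An unadjusted p under 0.05 was reached by 10 of the 31 and by 3844 of all 17782 genes. Over the same arrays fibroblast markers were at 9.86 to 10.25 in treated and 8.46 to 9.26 in untreated mutants (5 of 8 rose), and erythroid markers at 5.48 to 6.42 in treated and 4.43 to 5.32 in untreated mutants (1 of 2 rose). The actin signal was 0.0932 to 0.204 in treated and -0.0611 to 0.141 in untreated mutants, and with it as a covariate Pgk1 was not called. The part of the cell markers was not tested. Both comparisons rest on the same 4 untreated mutants, and the call for the trap was lost in 12 of 25 other settings, which included leaving out untreated mutant replicate 1, 3 or 4. Without untreated mutant replicate 2 there were 7 calls for the trap in mutants. Treated mutants and treated wild type differed in Pgk1 by -0.05 ± 0.09.

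The other glycolytic genes did not pass the test in muscle. In Pfkm, Tpi1, Pgam2, Eno3 and Ldha untreated mutant replicate 1 was the lowest of the 7 untreated arrays. In all of these but Pfkm, mutant replicates 3 and 4 also lay under every untreated wild-type array, and replicate 2 did not. Tpi1 was at 12.74, 13.57, 13.26 and 13.25 in untreated mutants and 13.58, 13.57 and 13.61 in untreated wild type (-0.38 ± 0.14, adjusted p = 0.0802). Pgam2 was at 12.75, 13.93, 13.55 and 13.51 in mutants and 13.87, 13.89 and 13.94 in wild type (-0.47 ± 0.19, adjusted p = 0.107). Pkm (-0.24 ± 0.09), Ldha (-0.27 ± 0.12), Eno3 (-0.17 ± 0.10) and Pfkm (-0.14 ± 0.13) were short of the threshold. Hk3 (-0.01 ± 0.11), Pfkl (-0.20 ± 0.23), Aldoc (-0.07 ± 0.15), Pgam1 (0.07 ± 0.20), Pfkfb4 (0.03 ± 0.14) and the dim Fbp1 (0.16 ± 0.21) and G6pc (0.08 ± 0.18) did not pass the test either. Neither did Aldoa (0.04 ± 0.08), Gapdh (0.10 ± 0.08) and Ldhb (0.05 ± 0.13). In replicate 1 the actin signal was -0.0611, the lowest of the muscle arrays.

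The probe sets of Pfkfb2, Pfkfb3 and Pfkp disagreed in muscle. Pfkfb2 was at 6.09, 6.32, 6.43 and 6.49 in untreated mutants and 6.31, 5.67 and 6.12 in untreated wild type (0.30 ± 0.14), and its dimmer probe sets gave 0.07, -0.27 and -0.31. Pfkfb3 was at 10.48, 9.42, 9.33 and 9.75 in mutants and 10.40, 9.11 and 8.95 in wild type (0.25 ± 0.45), while its other probe set gave 1.45 ± 0.46. Replicate 1 was the highest array of both genotypes in Pfkfb3. Pfkp was at 6.38, 6.18, 6.43 and 6.63 in mutants and 6.96, 6.40 and 6.55 in wild type (-0.23 ± 0.19), and its dimmer probe sets gave 0.15 and -0.12.

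**Figure D5:**
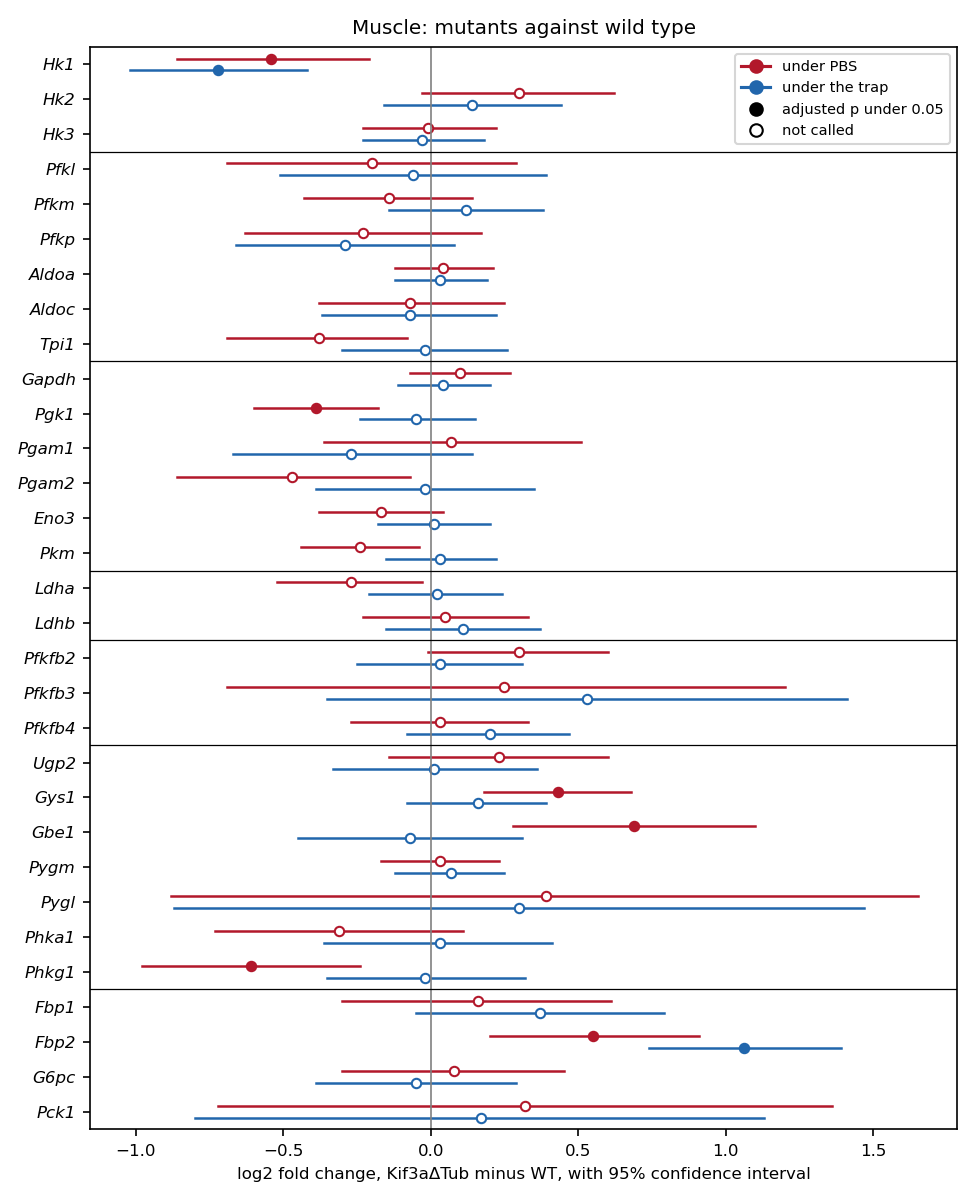
Log2 fold change of each gene between Kif3aΔTub and wild-type muscle under PBS (red) and under the trap (blue), with 95% confidence intervals and filled points where adjusted p was under 0.05. Filled are Gbe1, Gys1, Fbp2, Phkg1, Hk1 and Pgk1 under PBS and Fbp2 and Hk1 under the trap; the scale is narrower than in the plot for kidney.

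In wild-type muscle the trap gave 0 calls by limma among the 31 genes, with 3 at an unadjusted p under 0.05. Over all 17782 genes 0.0619% were called and 2068 had such a p. The interaction gave 0 calls and 5 such p-values, where 0.169% of all genes were called and 2599 had such a p. Pck1 was at 8.65, 8.0, 6.82 and 7.88 in treated mutants and 6.24, 7.64, 5.64 and 7.49 in untreated mutants (1.09 ± 0.45, adjusted p = 0.175). It was at 7.27, 7.88, 7.12 and 8.41 in treated wild type and 5.93, 7.14 and 6.22 in untreated wild type (1.24 ± 0.49, adjusted p = 0.364). The groups overlapped in both genotypes. Gys1 differed by -0.37 ± 0.11 between treated and untreated mutants, without overlap (adjusted p = 0.0566), and Phkg1 by 0.49 ± 0.16 (adjusted p = 0.0832).

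The genotype effect under PBS differed between the tissues for 18 of the 31 genes, 7 more positive and 11 more negative in kidney, where 37.2% of all genes differed. With each array centred on its median the split was 5 and 15, while the median of all genes was -0.19 in place of -0.05. The differences were widest in G6pc (-2.49 ± 0.60) and Fbp1 (-2.40 ± 0.42), which are dim in muscle, and Pck1 (-2.09 ± 0.77). Hk1 rose in kidney and fell in muscle (difference 1.41 ± 0.19, adjusted p = 9.27e-07). Gbe1 fell in kidney and rose in muscle (-1.60 ± 0.27, adjusted p = 2.56e-05). Hk2 (1.70 ± 0.30), Pfkp (1.45 ± 0.22) and Pkm (1.18 ± 0.25) were also more positive in kidney, and Pygl (-1.67 ± 0.65), Ugp2 (-0.98 ± 0.23) and Pgam2 (-0.84 ± 0.28) more negative. Of 39 other settings, 14 ended the call on Pygl, 10 that on Pck1 and 11 that on Pfkfb4, most of them by leaving out 1 array. For Pgk1, which fell in both tissues, the difference was -0.22 ± 0.11 (adjusted p = 0.13).

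Other genes of glucose metabolism were measured as well, 75 in 7 lists, of which 12 rose and 46 fell in untreated mutant kidneys and 12 were higher and 45 lower in treated mutant kidneys, where 51.6% and 46.4% of all genes were called. Of 13 further gluconeogenic and shuttle genes 12 fell and 1 rose under PBS, among them pyruvate carboxylase Pcx (-2.63 ± 0.36) and the glycerol phosphate dehydrogenase Gpd1 (-2.29 ± 0.36). Glucose and lactate transporters fell in 8 of 13 and rose in 2, led by the apical glucose transporter Slc5a2 (-3.08 ± 0.30), which is also one of the proximal tubule markers, and the basolateral transporter Slc2a2 (-2.24 ± 0.28). All 4 measured genes of fructose and galactose use fell, including ketohexokinase Khk (-2.33 ± 0.22) and triokinase Tkfc (-1.64 ± 0.27). Among other isozymes 7 of 10 fell and 2 rose, with the D-lactate dehydrogenase Ldhd at -2.60 ± 0.26 and the neuronal enolase Eno2 at 1.30 ± 0.19. Of 16 other glycogen genes 5 fell and 4 rose, with the liver glycogen synthase Gys2 at -2.69 ± 0.35 and the brain phosphorylase Pygb at 1.38 ± 0.12. Genes of pyruvate entry into mitochondria fell in 9 of 12 and rose in 1, such as Dld (-1.54 ± 0.14), a subunit of pyruvate dehydrogenase, and Pdk2 (-1.53 ± 0.18), a kinase that inhibits it. The pentose phosphate pathway had 2 higher, Pgd (1.00 ± 0.15) and H6pd (0.82 ± 0.11), and 1 lower of 7.

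In untreated mutant muscle 7 of the 75 rose and 5 fell, which is the share of all genes called there (16.0%), so the genes below are named as values only. Slc37a4, the transporter that carries glucose 6-phosphate to glucose 6-phosphatase, fell by 1.62 ± 0.34 and Ldhd by 0.76 ± 0.16. Pdk2 rose (0.88 ± 0.10, adjusted p = 5.32e-05) and Dlat, a subunit of pyruvate dehydrogenase, fell (-0.44 ± 0.14). The glycogen genes Ppp1r3c (1.01 ± 0.29), a targeting subunit of protein phosphatase 1, and glycogenin Gyg (0.48 ± 0.12) rose. So did Slc2a2 (0.95 ± 0.23), the alanine aminotransferase Gpt2 (0.58 ± 0.14) and H6pd (0.46 ± 0.13), and Slc16a3, a lactate exporter, fell (-0.78 ± 0.21). With the trap in mutants 5 of the 75 rose in muscle and 3 fell, where 6.33% of all genes were called. Slc37a4 (1.34 ± 0.32), Ldhd (0.64 ± 0.15), Pdk1 (0.58 ± 0.16) and the glycogen-binding protein Stbd1 (0.65 ± 0.18) rose, while H6pd fell by 0.51 ± 0.12. In kidney Gpt2 (1.06 ± 0.17), Pdhx (0.49 ± 0.10), a component of the pyruvate dehydrogenase complex, and the ADP-dependent glucokinase Adpgk (0.40 ± 0.10) rose with the trap in mutants. Comparisons that share the untreated mutants, as these do with those of genotype, are not independent of each other.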

How the data were processed

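RNA of muscle and kidney was hybridised to mouse expression arrays, and the authors' deposited table gives 1 log2 intensity per probe set and array, used as deposited; no label or file header names the normalization behind it. Probe sets were named through GEO's platform annotation, with symbols checked against RefSeq: 31563 of 35088 had 1 gene, 825 several and 2700 none, and only those with 1 gene were used. The probe set with the highest mean in a tissue stood for its gene. limma 3.58.1 in R 4.3.3 was fitted to 17782 genes per tissue with a mean per group, and to both tissues together with arrays of 1 animal allowed to correlate (estimated at 0.0749), followed by eBayes and Benjamini-Hochberg adjustment. Group sizes of 3 and 4 limit the precision. The labels name no batch. On simulated data for the genotype comparison under PBS, changes of log2 0.5, 1 and 2 were put into 67, 67 and 66 of 17782 genes. The spread of a gene was the same in every group. The changes were recovered in 49%, 85% and 98% of cases in kidney and 30%, 81% and 97% in muscle. In the data 51.6% of genes were called in kidney and 16.0% in muscle, so these rates may not hold there. Named genes were all measured members and, of each other list, the 2 called genes with the largest change under PBS and the largest for the trap in mutants. Members and lists were chosen with earlier results of these data known. Replicate numbers follow the order of samples within a group, and each animal has its own number in the titles. Arrays of different groups with the same replicate number were checked for shared deviations. Their correlations were -0.12 to 0.34 in kidney and -0.24 to 0.30 in muscle, so the replicate numbers were not taken to pair animals. Alternatives covered normalization, probe set choice, filters, weights, blocks, RNA quality and leaving out each array.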

Additional observations from a re-analysis of the deposited data

Results flagged for a closer look

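In 10 of 186 groups of 4 arrays, 1 array stood apart from the other 3 by Dixon's test, where chance gives about 1 group in 20. Treated mutant replicate 1 gave 5 of them. In muscle it was at 5.05 for Aldoc (5.59 to 5.69 in the others), 10.12 for Gbe1 (9.32 to 9.36), 14.08 for Pgam2 (13.81 to 13.82) and 13.43 for Ugp2 (12.61 to 12.73). In kidney it was at 8.41 for Pfkfb3 (7.61 to 7.73 in the others). Untreated mutant replicate 1 stood apart in muscle for Pfkm, at 12.66 (13.20 to 13.30), and for Ugp2, at 13.23 (12.78 to 12.83). Replicate 2 stood apart in kidney for Gbe1, at 8.28 in untreated mutants (7.44 to 7.52) and at 7.36 in treated mutants (7.69 to 7.73), and in treated mutant muscle for Pfkp, at 6.99 (6.28 to 6.39).

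The effect of genotype under PBS, tested as a difference of kidney minus muscle, differed for 18 genes. It was more positive in kidney for Hk2 (1.70), Pfkp (1.45), Hk1 (1.41), Pkm (1.18), Phkg1 (1.15), Pfkfb4 (0.58) and Aldoa (0.46). It was more negative in kidney for G6pc (-2.49), Fbp1 (-2.40), Pck1 (-2.09), Pygl (-1.67), Gbe1 (-1.60), Ugp2 (-0.98), Pgam2 (-0.84), Pfkm (-0.75), Fbp2 (-0.72), Gys1 (-0.57) and Gapdh (-0.56).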

How the results depend on the processing

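Over 97 calls on single genes and 3103 recomputed values, 181 calls were lost and 0 changed direction. Counts of called genes are given here with the count as reported first. For mutant against wild-type muscle under PBS (6) the fit of only the groups compared gave 2, a 2-fold minimum 0, the actin covariate 1 and leaving out 1 array 1 to 10. Under the trap (2) a 2-fold minimum gave 1, the actin covariate 1 and leaving out 1 array 1 to 2. For the trap in mutant muscle (1) the mean of probe sets, a filter at the median level, quantile normalization and a trended prior gave 2 each and array weights 5. Only the groups compared, the replicate block, a 2-fold minimum and the actin covariate gave 0 each, and leaving out 1 array gave 0 to 7. For the trap in wild-type muscle (0) array weights gave 1 and leaving out 1 array 0 to 1. In kidney a 2-fold minimum gave 8 for genotype under PBS (23) and 6 under the trap (16), and leaving out 1 array gave 20 to 23 and 14 to 19. For the trap in mutant kidney (0) leaving out 1 array gave 0 to 2. For the trap in wild-type kidney (0) array weights gave 2, for the interaction (0) 1, and leaving out 1 array 0 to 2 in each. For the difference between tissues (18) a 2-fold minimum gave 10 and leaving out 1 array 14 to 20. With the replicate block the counts were 5 for muscle and 23 for kidney under PBS, and 2 and 15 under the trap. Since the replicate numbers were not taken to pair animals, this setting within a tissue removes no known source of spread. Median centring moved the share of higher calls over all genes from 43.4% to 54.6% in muscle under PBS, from 48.2% to 37.0% in kidney under PBS and from 47.8% to 31.6% under the trap, and for the difference between tissues from 53.0% to 38.1%. Quantile normalization moved it for the trap in mutant muscle from 66.0% to 53.6% and in wild-type muscle from 54.5% to 43.8%, and for the muscle interaction from 90.0% to 79.5% (77.8% with centring). Dim probe sets limit what can be said of Fbp1 and G6pc in muscle and Phkg1 in kidney.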
